A study of Mus musculus with 14 samples.

Results

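The replication-dependent histone genes were followed across young and old multipotent progenitors of mouse bone marrow. A probe set, the group of array probes summarised as 1 value, was a member where a gene symbol in the platform annotation had the name form of these genes (H1f1 to H1f5, H2ac, H2bc, H3c or H4c, or the older Hist names). Of the 22115 probe sets with deposited values, 36 were members, of which 24 carried 1 gene symbol and 12 carried several. The 24 single-symbol members held 4 genes of the linker histone H1, 4 of H2A, 8 of H2B, 2 of H3 and 6 of H4. By the RefSeq annotation of GRCm38.p6, 20 of these genes lie on chromosome 13 and 4 on chromosome 3. The 12 members with several symbols comprised 5 of H3, 3 of H4, 2 of H2B, 1 of H2A with H3 and 1 of H1 with H2B.

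Histones H2A, H2B, H3 and H4 form the core around which DNA is wound, and H1 binds the linker DNA between cores. Their replication-dependent genes sit in clusters, have no introns and are transcribed mainly in S phase, when newly made DNA has to be packed. Their mRNAs end in a stem-loop rather than a poly(A) tail, which is bound by Slbp and cut with the help of the U7 small nuclear RNA, and they decay when replication stops. In blood-forming tissue the level of these mRNAs is best known as a companion of DNA replication in dividing progenitors.

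The study asked how old marrow changes blood-forming cells, and 14 Affymetrix Mouse Gene ST 1.0 arrays were run on sorted wild-type C57BL/6 cells, 20000 per array. The young groups came from mice of 8 to 10 weeks and the old groups from mice of 24 months, and no group was treated. MPP3, which are myeloid-biased, were taken as Flk2- and CD48+ cells, given as CD150- in the series' design and as CD150+ in the methods of the study, and MPP4, which are lymphoid-biased, as Flk2+ cells, both within the lineage-negative, cKit+ and Sca-1+ fraction. There were 3 young MPP3, 3 old MPP3, 5 young MPP4 and 3 old MPP4 arrays. Since an earlier series holds the young arrays too, age and the series of origin cannot be told apart.

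Flt3, which encodes Flk2, read 2.77 to 3.53 on the 8 MPP4 arrays and 1.42 to 2.20 on the 6 MPP3 arrays, with no overlap, and Slamf1, which encodes CD150, lay between 0.0864 and 0.251 on all 14. Values are exponential scores: a probe set is ranked within its array, and its score is minus the natural log of the fraction of probe sets ranked no lower, so a score carries a rank, and a difference of scores is not a fold change. The median score of an array was 0.662 to 0.675. Over the dimmest 33.3% of probe sets, with histones left out, the arrays were clustered into 2 sets, a number fixed in advance. Array set 2 held 5 arrays, replicates 2 and 3 of young MPP3 with replicates 3, 4 and 5 of young MPP4. Array set 1 held the other 9, among them the 6 old arrays. Neither the labels nor the methods name such sets. In bulk RNA, fewer cells in S phase and less histone mRNA per cell cannot be told apart. Histone genes of 1 type are close to identical in their coding sequence, so a probe set with a single symbol may still have bound RNA of other copies.

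Promoters are shown for 1 gene each of H1, H2A, H4 and H2B that was low on the same 3 arrays, H1f5, H2ac4, H4c3 and H2bc14, and for H4c8, which was high on them; the 5 were picked after their values were seen. Each run is the 150 bases before the RefSeq start of the gene (GRCm38.p6), read 5′ to 3′ on the strand of the gene. Capitals mark 4 motifs on either strand, the CCAAT box (CCAAT), the TATA box (TATAAA), the octamer (ATTTGCAT) and the H1 box (AAACACA).
H1f5, chr13:21780626-21780775, minus strand: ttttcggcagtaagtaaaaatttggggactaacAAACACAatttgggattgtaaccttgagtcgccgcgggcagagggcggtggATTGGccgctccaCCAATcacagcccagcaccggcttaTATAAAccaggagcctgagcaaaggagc
H2ac4, chr13:23750938-23751087, plus strand: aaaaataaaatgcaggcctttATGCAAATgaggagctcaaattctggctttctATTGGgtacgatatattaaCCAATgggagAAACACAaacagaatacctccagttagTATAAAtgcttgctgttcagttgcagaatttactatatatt
H4c3, chr13:23698459-23698608, minus strand: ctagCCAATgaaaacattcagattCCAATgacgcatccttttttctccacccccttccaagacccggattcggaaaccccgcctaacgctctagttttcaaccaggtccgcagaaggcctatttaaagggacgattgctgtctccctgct
H2bc14, chr13:21721894-21722043, plus strand: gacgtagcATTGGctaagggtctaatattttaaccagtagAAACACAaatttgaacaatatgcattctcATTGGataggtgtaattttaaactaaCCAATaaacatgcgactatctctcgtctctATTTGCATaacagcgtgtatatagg
H4c8, chr13:23530894-23531043, plus strand: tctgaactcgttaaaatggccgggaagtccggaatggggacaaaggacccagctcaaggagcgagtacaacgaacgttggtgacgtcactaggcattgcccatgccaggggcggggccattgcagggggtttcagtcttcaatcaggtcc

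RefSeq promoters, taken from 250 bases before to 50 after the start, were matched for 22 of the 24 single-symbol genes, without H2bc21 and H4c14. A CCAAT box was in 19 of these 22, against 37.9% of 27025 promoters of all genes, and TATAAA in 15, against 14.2%. The octamer was in 8 of 22, against 1.75% of all promoters. It was found in 5 of 7 H2B and 3 of 4 H2A promoters and in none of the 11 promoters of H1, H3 and H4 genes. AAACACA was in 7 of 22, against 7.14%, and 3 of the 4 H1 promoters held it. The H4c8 window held none of the 4 motifs. These are matches of letters in a window, and the motifs can occur without being used.

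No histone probe set passed an adjusted p of 0.05 in any of the 5 comparisons made, by limma on all 22115 probe sets with Benjamini-Hochberg adjustment. Between old and young MPP3, 0 of 36 members were called, as were 0% of all probe sets. Between old and young MPP4 both were again 0 of 36 and 0%. Between MPP4 and MPP3 of young mice, 0 of 36 members and 0.231% of all probe sets were called. Between MPP4 and MPP3 of old mice, and for the age difference of MPP4 minus that of MPP3, 0 of 36 members and 0% of all probe sets were called. A statistic of the SAM type, run for the 4 comparisons of a pair of groups, also called 0 members. At an unadjusted p under 0.05, 1 member (H4c9) was higher and 0 lower in old MPP3, against 3.28% and 4.75% of all probe sets. In old MPP4, 1 member (again H4c9) was higher and 0 lower, against 4.44% and 5.33%. In young MPP4 against young MPP3, 1 member (H4c8) was higher and 2 lower (H1f5 and an H4 probe set with 11 symbols), against 5.19% and 5.72%. In old mice 1 member (H2bc21) was higher and 1 lower (H1f5), against 5.98% and 3.66%. For the age difference of MPP4 minus that of MPP3, 1 member (H2bc18) was higher and 0 lower, against 3.44% and 2.75%. All of these shares of members are near those of all probe sets.

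By the median SD of the single-symbol members, the widest spread was within young MPP4. Replicates 3, 4 and 5 of young MPP4 lay below replicates 1 and 2 for 23 of 36 members, against 27.4% of all probe sets, and above them for 2, against 21.8%. They lay below all 11 other arrays for 15 of 36 members, while 6.10% of all probe sets did so. They lay above all 11 others for 1 of 36 members, H4c8, against 5.06% of all probe sets.

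**Figure D1:**
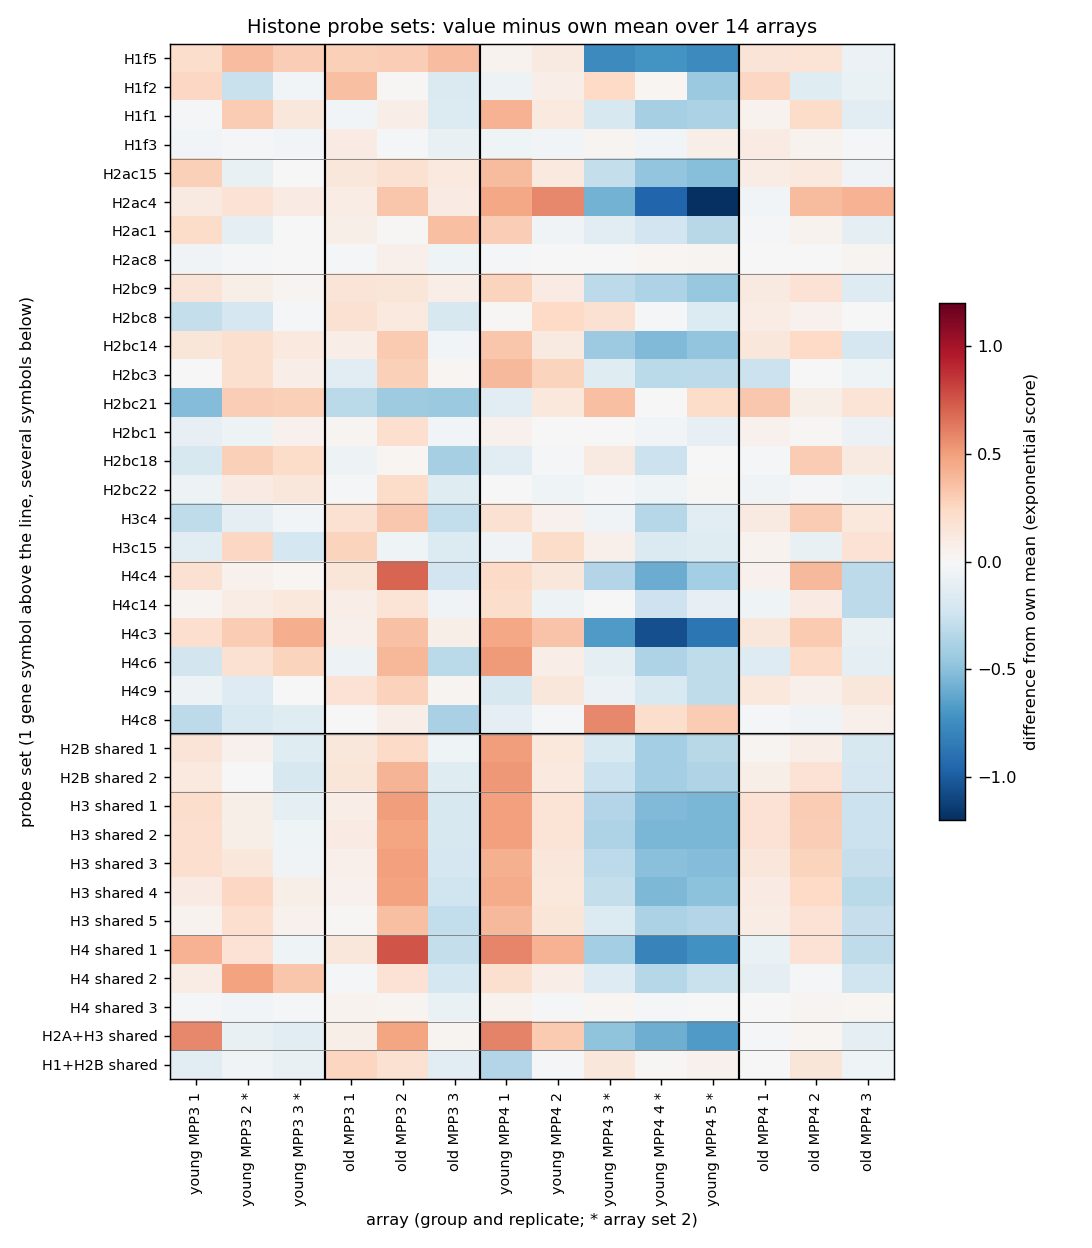
Each cell gives the score of 1 histone probe set (row) on 1 array (column) minus the mean of that probe set over the 14 arrays, with red above and blue below the mean; vertical lines separate the 4 groups and an asterisk marks array set 2. Young MPP4 replicates 3, 4 and 5 form the blue columns, whereas young MPP3 replicates 2 and 3 of the same array set do not.

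Among the linker histones, H1f5, a somatic H1, varied most. H1f5 read 2.67, 2.83 and 2.75 on the young MPP3 arrays, 2.75, 2.76 and 2.82 on the old MPP3 arrays, 2.50, 2.57, 1.69, 1.74 and 1.69 on young MPP4 replicates 1 to 5 and 2.61, 2.62 and 2.39 on the old MPP4 arrays. All 8 MPP4 arrays lay below all 6 MPP3 arrays, and the 3 lowest were young MPP4 replicates 3, 4 and 5. The young difference of MPP4 minus MPP3 was -0.712 ± 0.247 (SE; limma adjusted p = 0.364). In old mice it was -0.235 ± 0.0720 (limma adjusted p = 0.419). H1f5 was thus lower in MPP4 at both ages with no overlap of the arrays, and the difference passed no adjusted threshold at either.

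H1f1, another somatic H1, read 1.69, 1.48 and 1.50 on young MPP4 replicates 3 to 5, against 2.30 and 2.00 on replicates 1 and 2 and 1.71 to 2.18 on the 9 arrays of the other groups. These 3 arrays were again the lowest of 14, with replicate 3 just under old MPP3 replicate 3. H1f2, also a linker histone, was not low on all of them, with 2.64, 2.43 and 1.96 on these 3 arrays and 2.34 and 2.48 on the other two. H1f3 stayed between 0.130 and 0.318 on every array, below the array median of all probe sets throughout.

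Of the H2A genes, H2ac4 had the widest range of all single-symbol members. H2ac4 read 2.23, 2.30 and 2.22 on young MPP3, 2.22, 2.46 and 2.23 on old MPP3, 2.59, 2.71, 1.56, 1.18 and 0.934 on young MPP4 replicates 1 to 5 and 2.09, 2.51 and 2.55 on old MPP4. Young MPP4 thus held both the 2 highest arrays of 14 and the 3 lowest. Its age difference in MPP4 was 0.590 ± 0.450 (limma adjusted p = 0.694), with the old arrays inside the range of the young ones. H2ac15 read 2.93, 2.75 and 2.71 on young MPP4 replicates 3 to 5 and 3.13 to 3.60 on the 11 others. H2ac1, whose product is known from testis, read 1.56, 1.47 and 1.37 on these 3 arrays and 1.59 to 2.06 elsewhere. H2ac8 lay at or under 0.141 on every array.

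Of the H2B genes, H2bc14 and H2bc9 had the same 3 lowest arrays. H2bc14 read 2.81, 2.86 and 2.78 on young MPP3, 2.74, 2.98 and 2.63 on old MPP3, 3.00, 2.77, 2.23, 2.13 and 2.19 on young MPP4 replicates 1 to 5 and 2.80, 2.91 and 2.46 on old MPP4. H2bc9 read 2.65, 2.59 and 2.50 on young MPP4 replicates 3 to 5 and 2.81 to 3.23 on the other 11 arrays. In both genes the 3 low arrays did not overlap the rest. H2bc3 read 1.90, 1.71 and 1.73 on these 3 arrays, where old MPP4 replicate 1, at 1.78, lay among them. H2bc8 did not share these low arrays, with 3.07, 2.87 and 2.72 on the 3 arrays, 2.90 and 3.13 on young MPP4 replicates 1 and 2 and 2.60 to 3.07 in the other groups.

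H2bc21, which encodes the H2B variant H2BE first described in olfactory neurons, had the largest population difference in old mice among the single-symbol members, short of the adjusted threshold. H2bc21 read 1.48, 2.30 and 2.29 on young MPP3, 1.67, 1.58 and 1.55 on old MPP3, 1.87, 2.13, 2.36, 2.00 and 2.22 on young MPP4 and 2.32, 2.07 and 2.17 on old MPP4. All 3 old MPP4 arrays lay above all 3 old MPP3 arrays, at a difference of 0.585 ± 0.0726 (limma adjusted p = 0.226). Its age difference in MPP3, -0.420 ± 0.240 (adjusted p = 0.698), rested on young MPP3 replicates 2 and 3, which belong to array set 2. Young MPP3 replicate 1, in the array set of the old arrays, read 1.48, below all 3 old MPP3 arrays.

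H2bc18 read 0.720, 1.19 and 1.13 on young MPP3 and 0.852, 0.935 and 0.515 on old MPP3, and 0.782, 0.897, 1.02, 0.653 and 0.913 on young MPP4 and 0.891, 1.22 and 1.02 on old MPP4. The groups overlapped at both ages. It was the 1 member with an unadjusted p under 0.05 for the age difference of MPP4 minus that of MPP3, which was 0.436 ± 0.197 (limma adjusted p = 0.803). As for H2bc21, the 2 high young MPP3 arrays were those of array set 2, and within array set 1, with 1 young MPP3 array, the H2bc18 age difference in MPP3 was 0.0474 rather than -0.246 and this difference of age differences 0.156. H2bc1, known as a testis H2B, stayed between 0.819 and 1.12, and H2bc22 between 0.201 and 0.567.

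The 2 single-symbol H3 genes varied less by population. H3c4 read 0.802 to 1.08 on young MPP3, 0.812 to 1.44 on old MPP3, 0.768 to 1.29 on young MPP4 and 1.22 to 1.41 on old MPP4, so the groups overlapped in both age comparisons. Its age difference was 0.224 ± 0.182 in MPP3 and 0.234 ± 0.115 in MPP4 (limma adjusted p = 0.783 and 0.550). H3c15 lay between 0.141 and 0.615 on every array.

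The products of the H4 genes are the same or nearly the same protein. Of these genes, 2 had their 3 lowest arrays of 14 in young MPP4 replicates 3 to 5, 1 had its 3 highest there and 3 had neither. H4c3 read 2.49, 2.59 and 2.71 on young MPP3, 2.34, 2.63 and 2.35 on old MPP3, 2.74, 2.62, 1.60, 1.22 and 1.42 on young MPP4 replicates 1 to 5 and 2.42, 2.59 and 2.19 on old MPP4. H4c4 read 3.74, 3.50 and 3.69 on young MPP4 replicates 3 to 5 and 3.79 to 4.80 on the 11 others. In both genes the 3 arrays were the lowest of 14, for H4c4 by a narrow margin below old MPP4 replicate 3.

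H4c8 read 0.392, 0.524 and 0.560 on young MPP3, 0.702, 0.787 and 0.314 on old MPP3, 0.603, 0.679, 1.28, 0.919 and 1.01 on young MPP4 replicates 1 to 5 and 0.687, 0.662 and 0.765 on old MPP4. Its 3 highest arrays were young MPP4 replicates 3, 4 and 5. All 5 young MPP4 arrays exceeded all 3 young MPP3 arrays, at a difference of 0.406 ± 0.151 (limma adjusted p = 0.394). In the old groups the arrays overlapped, with a difference of 0.104 ± 0.131 (adjusted p = 0.838).

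H4c9 was the 1 member with an unadjusted p under 0.05 in both age comparisons. H4c9 read 1.41, 1.32 and 1.47 on young MPP3, 1.64, 1.74 and 1.50 on old MPP3, 1.28, 1.61, 1.40, 1.29 and 1.16 on young MPP4 and 1.60, 1.53 and 1.61 on old MPP4. The old MPP3 arrays all lay above the young ones, whereas in MPP4 young replicate 2 lay above all 3 old arrays and the other 4 young arrays below them. The old minus young difference was 0.228 ± 0.0762 in MPP3 (limma adjusted p = 0.569) and 0.232 ± 0.0935 in MPP4 (limma adjusted p = 0.488). H4c14 stayed between 2.53 and 3.06, and H4c6 between 1.87 and 2.75 with all groups overlapping. On young MPP4 replicates 3 to 5 H4c6 read 2.12, 1.87 and 1.93, below the 2.75 and 2.32 of replicates 1 and 2.

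**Figure D2:**
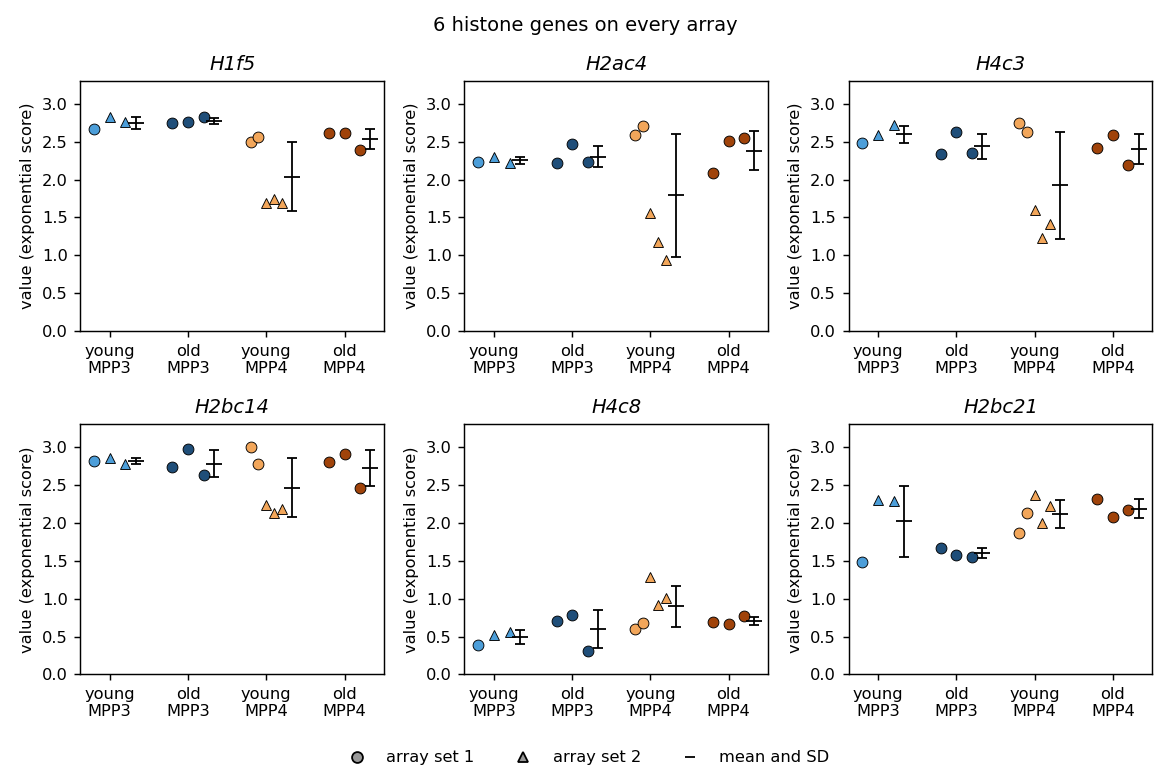
Scores of 6 histone genes (y axis) on every array of the 4 groups (x axis), with circles for array set 1, triangles for array set 2 and a bar for the mean and SD of each group. In H1f5, H2ac4, H4c3 and H2bc14 the 3 young MPP4 triangles lie below every other point, in H4c8 they lie above, and in H2bc21 the old MPP3 points lie below the old MPP4 points.

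The probe sets with several symbols cannot be read as 1 gene, but they showed the same arrays. The 5 H3 probe sets, each annotated to the same 12 H3 symbols, moved together over the 14 arrays with pairwise Pearson correlations of 0.937 to 0.998, as probe sets that may bind the same RNA. One of them, probe set 10408083, read 1.99, 1.80 and 1.80 on young MPP4 replicates 3 to 5 against 2.09 to 2.85 on the 11 others. The 2 H2B probe sets correlated at 0.973. Of the 12, those below all other arrays on these 3 were 3 of H3, 1 of H2B, 1 of H4 and the 1 annotated to H2A and H3. The probe set of H2bc6 with H1f4 did not follow them, with 1.42, 1.29 and 1.33 on the 3 arrays and 0.934 to 1.54 elsewhere.

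The age differences of the single-symbol members had medians near 0. In MPP3 the median old minus young difference of the 24 single-symbol members was 0.0354, with 15 of 24 positive, beside a median of -1.37e-04 over all probe sets, of which 49.9% were positive. The 12 members with several symbols had a median of 0.0383, with 9 of 12 positive. By type, the single-symbol medians were 0.0274 for H1, 0.0653 for H2A, -0.0314 for H2B, 0.137 for H3 and 0.0460 for H4. The largest rise in MPP3 was that of H4c9 and the largest fall that of H2bc21, and neither passed the adjusted threshold. The groups did not overlap for 1 of 36 members, H4c9, which was higher in old MPP3, where 5.98% of all probe sets were higher without overlap. None was lower without overlap, against 8.05% of all probe sets. Within array set 1, which leaves young MPP3 replicate 1 as the only young array, the median of the 24 single-symbol members was 0.0530, with 17 of 24 positive. That of the 12 members with several symbols turned to -0.0666, with 3 of 12 positive.

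In MPP4 the median old minus young difference was 0.0654, with 19 of 24 positive, beside -6.52e-04 over all probe sets, of which 49.3% were positive. The 12 members with several symbols had a median of 0.104, with 11 of 12 positive. The single-symbol medians by type were 0.0867 for H1, 0.135 for H2A, 0.0403 for H2B, 0.148 for H3 and 0.132 for H4. The largest differences were 0.590 ± 0.450 for H2ac4, 0.502 ± 0.250 for H1f5, 0.480 ± 0.391 for H4c3 and 0.255 ± 0.231 for H2bc14, with limma adjusted p values of 0.694, 0.558, 0.711 and 0.741. In each of these 4 genes the 3 old arrays lay above young replicates 3, 4 and 5. Against young replicates 1 and 2 the old arrays were lower without overlap for H2ac4 and H4c3 and overlapped for H1f5 and H2bc14. No member was higher or lower in old MPP4 without overlap, against 3.26% and 4.06% of all probe sets. Within array set 1, which leaves young MPP4 replicates 1 and 2 as the young arrays, the median turned to -0.0612, with 9 of 24 positive. That of the 12 members with several symbols turned to -0.266, with 2 of 12 positive.

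**Figure D3:**
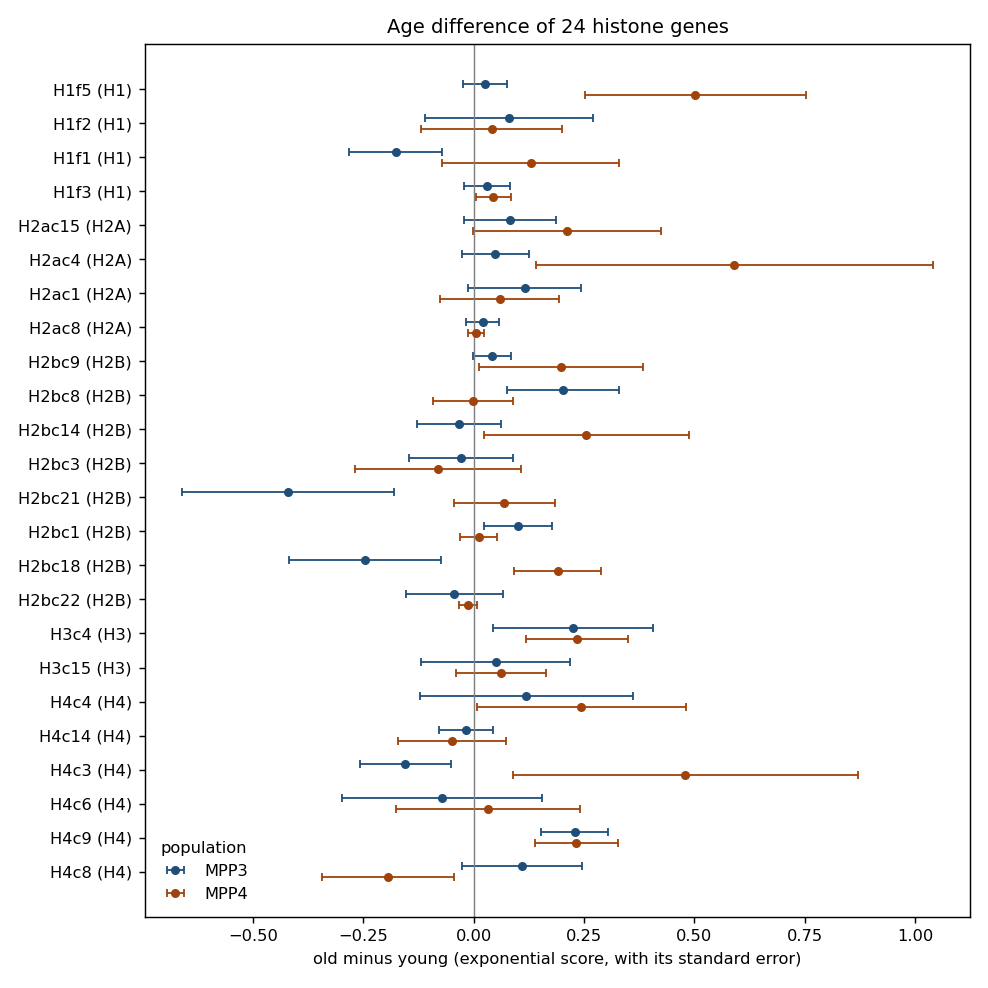
Old minus young difference in score with its standard error (x axis) for the 24 single-symbol histone genes (y axis, with their histone type), in blue for MPP3 and in brown for MPP4. In MPP3 the points run from -0.420 for H2bc21 to 0.228 for H4c9, and the widest bars are those of H2ac4, H4c3 and H1f5 in MPP4.

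The age difference of MPP4 minus that of MPP3 had a median of 0.0230 over the 24 members, with 16 positive, beside -0.00177 over all probe sets, of which 48.7% were positive. For the 12 members with several symbols the median was 0.112, with 8 of 12 positive. The widest positive values included 0.634 ± 0.481 for H4c3, 0.541 ± 0.547 for H2ac4, 0.490 ± 0.259 for H2bc21, 0.477 ± 0.305 for H1f5 and 0.436 ± 0.197 for H2bc18, and the widest negative one was -0.303 ± 0.218 for H4c8. Their limma adjusted p values were 0.898, 0.929, 0.854, 0.874, 0.803 and 0.886. Within array set 1 the median was -0.141, with 4 of 24 positive, so the direction over the members was not stable.

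Between populations of young mice, the median MPP4 minus MPP3 difference was -0.116, with 8 of 24 positive, beside -7.99e-04 over all probe sets, of which 49.3% were positive. For the 12 members with several symbols the median was -0.222, with 2 of 12 positive. By type, among single-symbol members, it was -0.121 for H1, -0.171 for H2A, -0.0987 for H2B, 0.0562 for H3 and -0.120 for H4. After H1f5, the largest falls were -0.674 ± 0.386 for H4c3, -0.461 ± 0.440 for H2ac4 and -0.350 ± 0.214 for H2bc14, with adjusted p values of 0.602, 0.791 and 0.629. The arrays did not overlap for 1 higher member, H4c8, and 1 lower, H1f5, against 3.61% and 3.82% of all probe sets. In old mice the median was -0.0439, with 10 of 24 positive, against 47.7% of all probe sets. For the 12 members with several symbols it was -0.0833, with 1 of 12 positive. Between the old groups 1 member was higher (H2bc21) and 2 were lower (H1f5 and the H2A and H3 probe set) without overlap, against 8.89% and 7.67% of all probe sets.

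The median of the young population difference had opposite signs in the 2 array sets. Within array set 2, MPP4 replicates 3 to 5 stood against MPP3 replicates 2 and 3, a comparison added after the data had been seen. The array sets were found by clustering these same arrays, so the calls are a description of them. In array set 2, 11 of 36 members were called lower by limma, 7 of them with a single symbol, and 0 higher. Of all probe sets, 7.91% were called there, 3.78% lower and 4.13% higher. At an unadjusted p under 0.05, 22 members were lower and 2 higher, against 14.2% and 14.3% of all probe sets. H4c3 differed by -1.24 ± 0.124 (adjusted p = 0.0215), H1f5 by -1.08 ± 0.0329 (adjusted p = 0.00215), H2bc14 by -0.633 ± 0.0419 (adjusted p = 0.0112) and H1f1 by -0.542 ± 0.0894 (adjusted p = 0.0428). H4c4, H4c6 and H2bc9 were also called, at -0.493, -0.491 and -0.433, whereas H2ac4, at -1.04 ± 0.196, was not (adjusted p = 0.0536). The median of the 24 members was -0.198, and 5 were positive, against 50.7% of all probe sets.

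Within array set 1, MPP4 replicates 1 and 2 stood against MPP3 replicate 1 alone, so the values are a description of these 3 arrays, with no test. The median was 0.0984 and 19 of 24 were positive, against 46.8% of all probe sets, among them H2ac4 at 0.415, H3c4 at 0.424 and H2bc3 at 0.327. H1f5 was negative in both sets, at -0.135 here. The value in set 2 minus that in set 1 was -0.948 for H1f5. It was negative for 21 of 24 single-symbol members and positive for 3, with a median of -0.376, where 52.7% of all probe sets were positive. With 1 array in 1 arm, whether the sets differ was not shown. Array set 2 holds no old array, so age could not be compared within it.

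**Figure D4:**
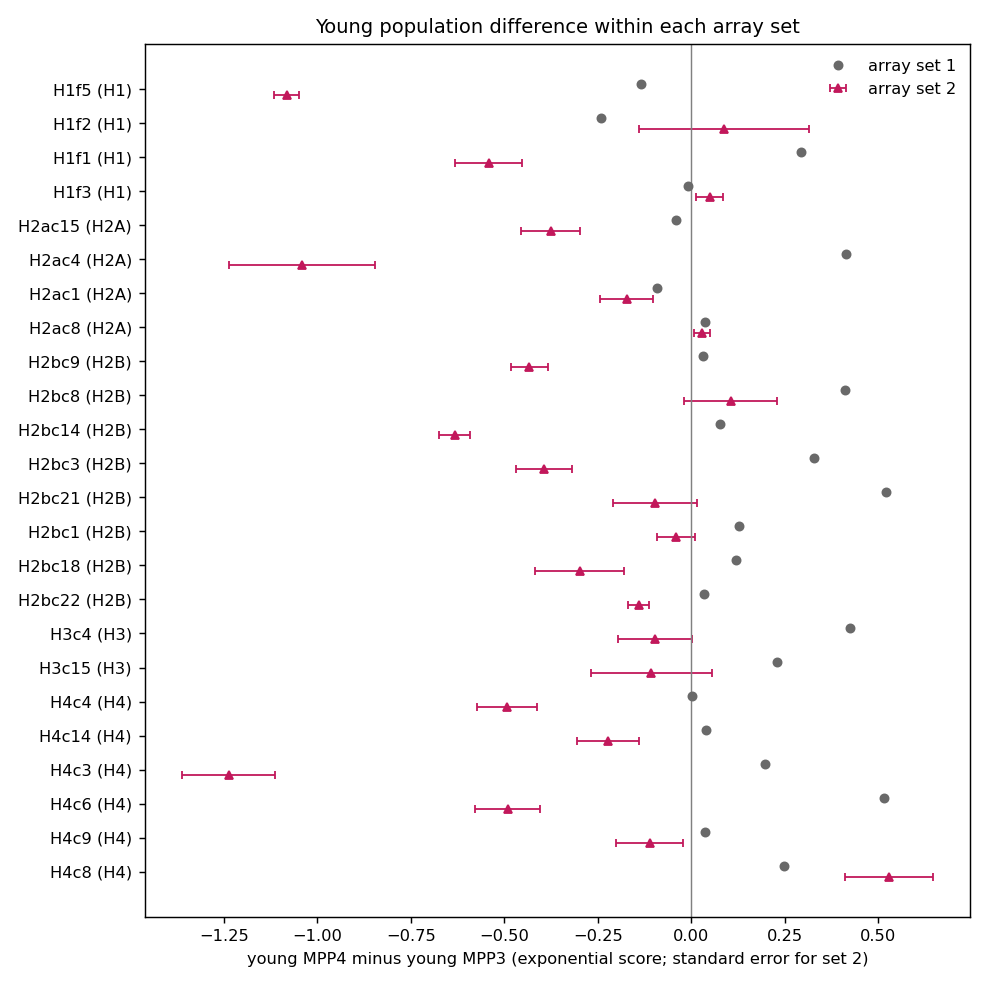
Young MPP4 minus young MPP3 difference in score (x axis) for the 24 single-symbol histone genes (y axis), in grey circles for array set 1, which has 1 young MPP3 array and no error bar, and in magenta triangles with the standard error for array set 2. The triangles of H4c3, H1f5 and H2ac4 lie below -1, while in array set 1 H1f5 is at -0.135 and the other two are above 0.

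Not all members took part in this pattern. With each group mean removed, the correlation of a single-symbol member with the mean of the other 23, over 14 arrays that share the same libraries, had a median of 0.706 and ran from -0.306 for H4c8 to 0.928 for H1f1. It was over 0.5 for 15 of 24. H4c3 (0.914), H2bc14 (0.906), H4c6 (0.862) and H2bc9 (0.849) were high, and H2ac8 (0.0103), H2bc21 (-0.0858) and H1f3 (-0.0995) low. The median SD of the 24 members over arrays was widest in young MPP4, at 0.248, against 0.101 in young MPP3, 0.172 in old MPP3 and 0.132 in old MPP4. Member by member, the SD was highest in young MPP4 for 11 of 24, against 28.4% of all probe sets. Over all probe sets the same medians were 0.0762, 0.0708, 0.0773 and 0.0437.

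The 5 single-symbol probe sets outside the members that were most like them were Foxd1, Mapk10, H2aw, Tnfrsf26 and Vdac1. Likeness was the Pearson correlation, over 14 arrays with group means removed, with the mean of the 12 single-symbol members of higher mean, and the values were 0.958, 0.956, 0.954, 0.952 and 0.948. Foxd1 read only 0.130 to 0.283 and Mapk10 0.0849 to 0.160 over the arrays, far below the array median of all probe sets. Both were among the dimmest 33.3% of probe sets, over which the array sets were found. H2aw, an H2A gene with the older name Hist3h2a, was not matched by the name forms. H2aw read 2.99, 2.84 and 2.86 on young MPP4 replicates 3 to 5, 3.38 and 3.48 on replicates 1 and 2 and 3.24 to 3.57 in the other groups. Its 3 low arrays were those of the members and did not overlap the rest. Tnfrsf26, a member of the TNF receptor family, read 0.390, 0.289 and 0.180 on these 3 and 0.963 to 1.89 on the 11 others, so genes outside the histone families had the same low arrays.

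The machinery that makes histone mRNA was listed with 24 genes, all measured. No gene of this list passed the adjusted threshold in the 5 comparisons, and its median difference was -0.0439 in old against young MPP3 and 0.00784 in old against young MPP4. Slbp, the stem-loop binding protein, read 1.98, 2.08 and 2.11 on young MPP3 and 1.94, 1.84 and 1.89 on old MPP3, with the old arrays all below the young ones and a difference of -0.168 ± 0.0472 (limma adjusted p = 0.518). On young MPP4 replicates 3 to 5 it read 1.85, 2.03 and 2.02, within the range of the other arrays. Npat, a coactivator of histone gene transcription, read 1.17, 1.22 and 1.23 on these arrays and 0.954 to 1.39 elsewhere, and Casp8ap2, which acts in histone pre-mRNA cleavage, 2.03, 1.92 and 2.16 against 1.91 to 2.26. None of the 3 genes was lowest on these arrays together, although Slbp on replicate 3 and Casp8ap2 on replicate 4 were each above only 1 other array. Rnu7, the U7 small nuclear RNA, was looked at after its values were seen: it read 0.803, 0.624 and 1.15 on young MPP4 replicates 3 to 5 and 0.133 to 0.640 on the other 11.

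A list of histone genes taken as replication-independent had 11 genes, of which 9 were measured, H3f3b and H1f0 not among them. Macroh2a1, which encodes a macroH2A, read 3.54 to 3.75 on the young MPP4 and 3.20 to 3.25 on the young MPP3 arrays and was the 1 gene of this list that passed, at 0.415 ± 0.0458 (limma adjusted p = 0.0258). Macroh2a2, which encodes the other macroH2A, read 1.53, 1.28 and 1.68 on young MPP4 replicates 3 to 5 and 0.338 to 1.15 on the 11 others, so it was high where the members were low. H2az1, which encodes H2A.Z, read 4.65, 4.43 and 4.52 on these 3 arrays and 4.67 to 5.80 on the others, and so shared the low arrays. H3f3a read 0.973, 0.988 and 0.884 there, within 0.824 to 1.13 elsewhere. H2ax, which is also among the symbols of the H2A and H3 member, read 2.07, 1.95 and 1.86 on young MPP4 replicates 3 to 5 and 1.87 to 2.66 on the other arrays. None of these 4 passed in any comparison. Of 23 histone chaperones, 21 were measured and 0 passed in any comparison. In MPP3 the largest statistics were those of Supt16, a subunit of the FACT complex, at 0.225 ± 0.0510, and Nasp, which binds H1 and H3, at 0.225 ± 0.0507, with an adjusted p of 0.492 each. Anp32e, a chaperone of H2A.Z, differed by 0.199 ± 0.0545 in MPP4 (adjusted p = 0.373).

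DNA replication and S phase genes were listed with 32 genes, of which 31 were measured. Between old and young MPP4, 26 of 31 were positive with a median of 0.0487, where 49.3% of all probe sets were positive. Of the 31, 6 had an unadjusted p under 0.05 in the higher direction, beside 4.44% of all probe sets, and 0 passed after adjustment. The list mean was 2.01 in old MPP4, against 1.99 in young MPP4 of array set 1 and 1.86 in young MPP4 of array set 2. Rrm1, a subunit of ribonucleotide reductase, differed by 0.336 ± 0.0943 and Fen1, a flap endonuclease, by 0.143 ± 0.0381, with adjusted p values of 0.378 and 0.362. The mean score of the 31 genes was 1.83, 1.90 and 1.83 on young MPP4 replicates 3 to 5, against 1.98 and 2.00 on replicates 1 and 2 and 1.96 to 2.05 on the 9 arrays of the other groups. These were the same 3 lowest arrays as for the mean of the 24 histone genes, which was 1.72, 1.53 and 1.55 there and 1.74 to 2.00 on the 11 others. Mki67, a marker of cycling cells, read 2.39, 2.47 and 2.59 on the 3 arrays and 2.61 to 2.99 elsewhere, and Pcna, the sliding clamp, 4.46, 4.51 and 4.49 against 4.25 to 5.06.

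G2 and M phase genes, with 22 of 24 measured, did not have the same 3 lowest arrays. Their mean was 1.77, 1.85 and 1.76 on young MPP4 replicates 3 to 5 but 1.71 on replicate 1, and 1.85 to 2.22 in the other groups. Between old and young MPP3, 19 of 22 were positive with a median of 0.192, where 49.9% of all probe sets were positive. At an unadjusted p under 0.05, 6 were higher in old MPP3, against 3.28% of all probe sets, and 0 passed after adjustment. Between old and young MPP4, all 22 were positive with a median of 0.285, where 49.3% of all probe sets were positive. Of the 22, 14 were higher at an unadjusted p under 0.05, against 4.44% of all probe sets, while 0 passed after adjustment. Nusap1, a spindle protein, differed by 0.627 ± 0.159 (limma adjusted p = 0.351). Young MPP4 replicate 1, the lowest array for this list, was among the highest arrays for the histone genes, at a mean of 1.98.

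**Figure D5:**
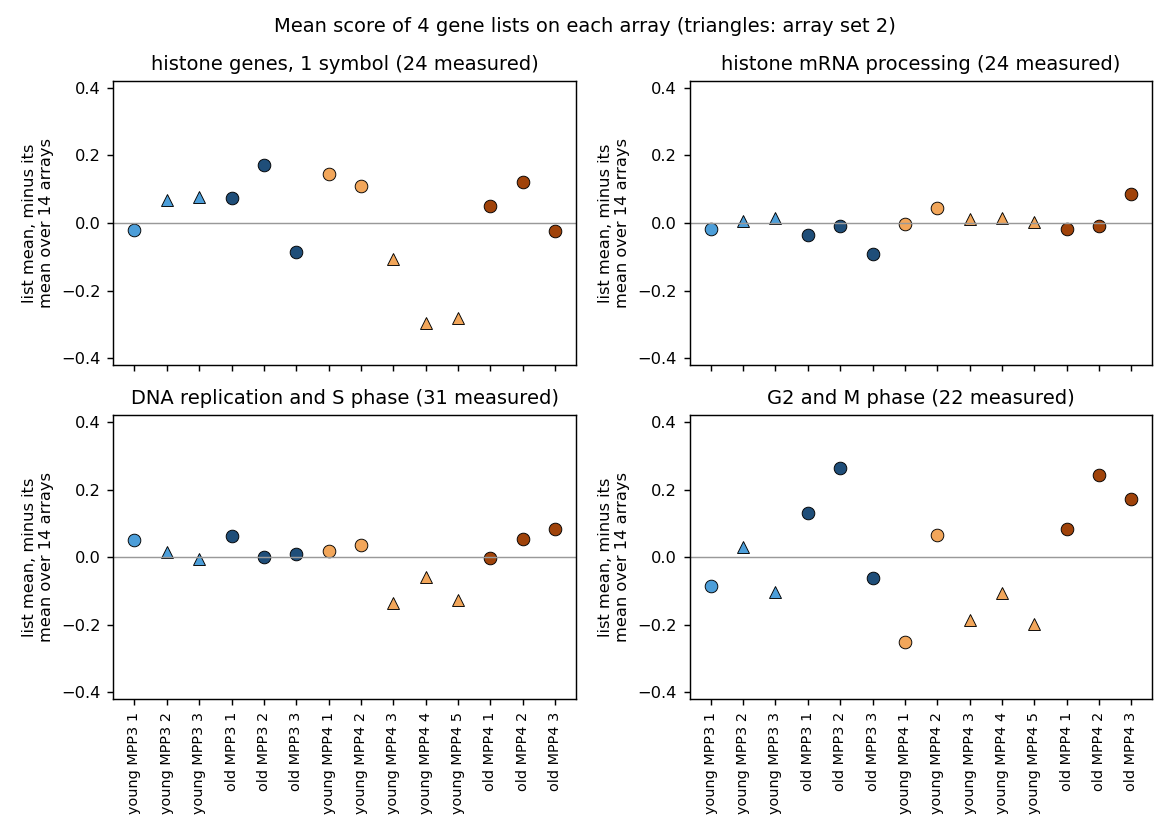
Mean score of 4 gene lists on each of the 14 arrays (x axis), given as its difference from the mean of that list over the arrays (y axis), with triangles for array set 2 and colours for the 4 groups. Young MPP4 replicates 3, 4 and 5 are the lowest arrays for the 24 histone genes and for the 31 DNA replication genes, not for histone mRNA processing or for G2 and M phase.

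Other measures moved with the same 3 arrays, and their part in the histone values was not tested. Cdkn1c, an inhibitor of the cell cycle known from quiescent stem cells, read 1.26, 1.03 and 1.07 on young MPP4 replicates 3 to 5 and 0.422 to 0.697 on the 11 other arrays. Cd48 read 2.18, 2.09 and 2.29 on these 3 and 2.33 to 2.70 elsewhere, and Flt3 read 3.01, 2.77 and 2.86 against 3.29 to 3.53 on the other 5 MPP4 arrays. Of further RNAs without a poly(A) tail, chosen after their values were seen, Terc, the RNA of telomerase, read 0.691, 0.677 and 0.697 on the 3 and 0.736 to 1.22 elsewhere. Rmrp, the RNA of RNase MRP, read 2.67, 2.56 and 2.63 on the 3. It read 2.53 and 2.79 on young MPP3 replicates 2 and 3, also of array set 2, and 2.90 to 3.55 on the arrays of array set 1. Rmrp was thus lower on array set 2 than on array set 1 with no overlap. Xist, the RNA of the inactive X chromosome, was above 1 on 4 arrays, replicates 1, 4 and 5 of young MPP4 and replicate 1 of young MPP3, so the 3 low arrays held 2 with Xist and 1 without. The Y-linked Eif2s3y read 0.855 and 1.89 on young MPP4 replicates 4 and 5, but 0.0221 and 0.0261 on the other 2 arrays with Xist. Thus replicates 4 and 5 carried both transcripts, and whether they pooled mice of both sexes is not given in the sources used here.

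Of the marker lists of other marrow cells, B lineage and T cell means were also lowest on these 3 arrays among the MPP4 arrays. The 6 B lineage genes measured had a mean of 0.673, 0.663 and 0.744, against 0.771 to 1.26 on the other 5 MPP4 arrays, and the 3 T cell genes 0.329, 0.316 and 0.287, against 0.336 to 0.370. The 6 myeloid progenitor genes read 1.16, 1.27 and 1.08, against 1.25 to 1.36 on the other MPP4 arrays and 1.72 to 3.62 on MPP3. The 7 erythroid genes read 0.616, 0.829 and 0.551, against 0.539 to 0.604, and the 4 megakaryocyte genes 0.834, 0.688 and 0.855, against 0.708 to 0.825, so that in both lists 2 of the 3 arrays lay above the other MPP4 arrays. The part of these cells in the histone values was not tested.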

How the data were processed

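RNA of sorted cells was amplified with NuGEN Ovation Pico kits and hybridized to Mouse Gene ST 1.0 arrays. The deposited score of each probe set came from RMA followed by quantile normalization to a standard exponential distribution, per the authors. With ranks taken out of 25307, more than the deposited probe sets, 92.3% of values gave a whole-number rank to within 0.01. All 22115 probe sets were fitted with limma (version 3.58.1, R 4.3.3), 2-sided, with Benjamini-Hochberg adjustment at 0.05 and without a filter on low values; 5 of 36 members lay in the dimmest 33.3%. Tables were made with Python 3.11.15. Groups came from the sample titles. Correlations between arrays were 0.948 to 0.994. The fit was tested on simulated data, with differences of 0.5 or 1 in score added to some probe sets. For age in MPP3, 54% of those of 0.5 and 82% of those of 1 were called, with 4 false calls. For age in MPP4, 71% of those of 0.5 and 95% of those of 1 were called, with 14 false calls. The 2 array sets came from clustering the dimmest probe sets, and the comparisons within and between them were added after the data had been seen.

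Symbols came from the platform annotation, which listed 1 symbol for 19236 probe sets, several for 744 and none for 2135. Named members had an unadjusted p under 0.05, or were the largest positive or negative difference of their type in a comparison, or were among the 2 highest or the lowest mean of their type; named companion genes passed the adjusted threshold, had 1 of the 2 largest statistics of their list in an age comparison, or belonged to a short list of core cell cycle, histone and sort genes. Members and lists were chosen with earlier results of these data known. The p-values measure the spread between arrays labelled as biological replicates.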

Additional observations from a re-analysis of the deposited data

Results flagged for a closer look

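H1f5 was singled out for the size of its young MPP4 minus young MPP3 difference in the 2 array sets. The difference was -1.08 in array set 2 and -0.135 in array set 1, which is -0.948 for set 2 minus set 1. The array sets were found in these data, and the comparison was added after the data had been seen. Array set 1 has 1 young MPP3 array in it, so that no test can show that the sets differ. Of the 3 MPP4 arrays of set 2, 2 had Xist above 1 and 1 did not. Whether these or other differences between the arrays bear on H1f5 was not tested. No young MPP4 array stood apart from the other 4 in any of the 36 members by Dixon's test, with a critical value of 0.71.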

How the results depend on the processing

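The number of histone probe sets called stayed at 0 in 98 of 100 recomputations over the 5 comparisons. The exceptions were both in young MPP4 against young MPP3, with 4 called under array weights and 11 within array set 2, the latter chosen after seeing the data. Under array weights the single-symbol genes that passed were H1f5, H4c3 and H2bc22. The median of the 24 genes changed sign in 9 of 105 recomputations. It became -0.0612 within array set 1 for age in MPP4, 0.0984 within array set 1 for the young population difference and -0.141 within array set 1 for the difference of age differences. For age in MPP4 it was 0.218 under array weights and 0.159 without the dimmest 33.3% of probe sets.

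Leaving out 1 array at a time gave medians from 0.00155 to 0.0699 for age in MPP3, from 0.0460 to 0.162 for age in MPP4, from -0.164 to -0.0538 for the young and from -0.105 to 0.0422 for the old population difference and from -0.0441 to 0.135 for the difference of age differences. For age in MPP4 it moved most without young MPP4 replicate 1 (0.162), and for age in MPP3 without old MPP3 replicate 2 (0.00155) or 3 (0.0699). The old population median turned positive without old MPP3 replicate 2 (0.0422) or old MPP4 replicate 3 (0.00913), and the last turned negative without old MPP3 replicate 3. Each call stayed at 0 in these recomputations.

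Arrays with the same replicate number did not all deviate together. The correlations were -0.0621, 0.246 and -0.177 for age in MPP3, 0.262, -0.0374 and 0.131 for age in MPP4, 0.406, -0.155 and 0.185 in young and 0.0402, 0.0159 and -0.0396 in old mice, so the numbers give no pairing that holds for all replicates. The highest, 0.406, was that of replicate 1 of young MPP3 and of young MPP4. These arrays read 3.52 and 3.49 for Xist and 0.0221 and 0.0261 for Eif2s3y. Whether they came from the same mice is not given in the sources used here. With the replicate number as a block, 0 members were called and the medians were 0.0354, 0.00242, 0.0150, -0.0439 and -0.0783 for age in MPP3, age in MPP4, the young and the old population difference and the difference of age differences, so those of the young population difference and of the difference of age differences changed sign. The SAM-type statistic was not run for the difference of age differences, which is not a comparison of a pair of groups. The number of arrays, 3 to 5 in a group, limits the precision.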
